A study of Homo sapiens with 6 samples.

Results

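Histone chaperones escort histones from their synthesis to the nucleus and hand them to and from DNA during replication, transcription and repair. Different chaperones carry different histones. The NAP1 family and the FACT complex handle mainly H2A-H2B, NASP, ASF1 and HIRA handle H3-H4 on its way to chromatin, and SET and the ANP32 proteins are acidic chaperones that bind several histones.

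The genes described here are 10 histone chaperone genes, NAP1L1, NAP1L4, SET, ANP32A, ANP32B, ANP32E, NASP, ASF1A, HIRA and SSRP1, found by symbol in the deposited table of normalized counts, out of 58174 human gene identifiers. The list was chosen by its values in the comparison reported below, in which the low level of NAP1L1 after DYRK1A depletion was already known, so the members' differences between the conditions are given as a description without a test. All 10 members passed the filter on low counts (a mean above 10 CPM, the counts of a library scaled to a common total) that left 9697 genes for testing.

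The samples were 6 mRNA libraries of T98G, a human glioblastoma cell line, infected with lentivirus for a control hairpin (shControl, 3 libraries) or for a hairpin that depletes the protein kinase DYRK1A (shDYRK1A, 3 libraries) and selected with puromycin. Each condition has libraries 1A, 1B and 1C. The labels do not say whether these were separate cultures, so the standard errors and p-values measure only the spread between these libraries. Every library also contained RNA from a fixed number of Drosophila Kc167 cells added to equal numbers of T98G cells, and the authors' normalized counts are raw counts divided by 1 size factor per library obtained from that fly spike-in. The labels name 1 hairpin per condition and 1 cell line.

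Counts on human genes summed to between 33708297 and 42154438 per library. The size factors ranged from 0.821 (1A) to 1.03 (1C) in shControl libraries and from 1.06 to 1.21 in shDYRK1A libraries. Within its group, shControl 1C had the highest size factor and the lowest normalized level of every member. DYRK1A itself had 2119 ± 194 normalized counts in shControl and 1274 ± 213 in shDYRK1A (SD, n = 3), a log2 fold change of -0.73 ± 0.15 (SE, edgeR adjusted p = 5.33e-06). The mesenchymal genes VIM and CD44 were abundant (1530 to 1975 and 1401 to 1591 CPM), whereas the astrocyte marker GFAP was nearly absent (0 to 0.0949 CPM), as were the stem and progenitor markers NES (1.29 to 2.02 CPM) and OLIG2 (1.06 to 1.87 CPM). In the spike-in scaling 93.6% of the tested genes had a negative log2 fold change and the median gene stood at -0.40. TMM, a scaling that assumes most human genes do not change, put the median at 0.00, and each member is therefore given on both scales. On the TMM scale the log2 fold change of DYRK1A itself was smaller, at -0.34 (edgeR adjusted p = 0.000591). In these bulk libraries less RNA per cell and fewer surviving cells of a kind cannot be told apart.

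NAP1L1 belongs to the class of transcripts that begin with a C followed by a run of pyrimidines (a terminal oligopyrimidine tract, TOP), through which translation of ribosomal proteins and some other abundant proteins is controlled. The first bases of the annotated transcripts were therefore read from RefSeq (GRCh38.p14), which gave 16 promoters for 9 of the members. ANP32E had no match. Each line below gives 30 bases 5′ to 3′ on the gene's strand, 10 before the annotated start and 20 from it. The pyrimidine run that begins at this start is in capitals. NAP1L1, ANP32B, SSRP1 and NASP are shown because a run begins at their start, and ANP32A and HIRA because none does.
NAP1L1: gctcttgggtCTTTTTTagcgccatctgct
ANP32B: ctccagccccCTTTTCCCTCCatggtttct
SSRP1: ccagctcatcCTCTCTgtggcctgtgtacg
NASP: cgcgcggggtCTCTaatctgccattttctg
ANP32A: cgatcaggttagtgtgcgccgcgggtgctg
HIRA: gacttccggcgttgcccgggagccgcctga
The windows lie at chr12:76084666-76084695 (minus strand) for NAP1L1, chr9:97983331-97983360 (plus) for ANP32B, chr11:57335873-57335902 (minus) for SSRP1, chr1:45584031-45584060 (plus) for NASP, chr15:68820876-68820905 (minus) for ANP32A and chr22:19431714-19431743 (minus) for HIRA. The run was 11 bases long in ANP32B, 7 in NAP1L1, 6 in SSRP1 and 4 in NASP. The starts used in T98G were not measured, and annotations differ. The GENCODE v29 gene begins at position 97983361 for ANP32B and 57335877 for SSRP1. The RefSeq starts lie upstream, at 97983341 and 57335892, so both runs fall outside the GENCODE gene. A start with C and at least 4 further pyrimidines was found in 4 of the 16 member promoters, in NAP1L1, ANP32B, SSRP1 and 1 of the 5 SET starts. The same was found in 4.07% of all 35116 promoters. In a list of other TOP transcripts that left out the RPL and RPS genes, it was found in 11 of 15 promoters. The palindrome TCTCGCGAGA, searched in the 300 bases from 250 before to 50 after each start, was in 0 of the 16 member promoters and in 0.424% of all promoters. The E2F-like words TTTCGCGC and TTTGGCGC, on either strand, were in 0 of the 16 and in 1.15% of all. CCAAT on either strand was in 9 of the 16, belonging to ANP32A, ASF1A, NAP1L4, NASP and SET, and in 34.6% of all. These matches describe letters in a window only, and starts of 1 gene can lie within the same window.

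The levels of the members differed widely in shControl. Per kilobase of annotated exon, a rough correction for gene length, ANP32B stood highest with 5211 ± 629 normalized counts per kilobase and HIRA lowest with 177 ± 34.6 (SD, n = 3). Between them the order was SET (4481 ± 445), NASP (3591 ± 402), SSRP1 (3403 ± 345), NAP1L4 (1822 ± 186), NAP1L1 (1504 ± 188), ANP32A (1273 ± 128), ANP32E (1102 ± 128) and ASF1A (753 ± 92.6), each in normalized counts per kilobase. Neighbours in this order whose libraries overlapped were ANP32B and SET, NASP and SSRP1, and each step from NAP1L4 through NAP1L1 and ANP32A to ANP32E. These overlaps were between different libraries, and within each single shControl library the order of the members was the same. The order was the same for CPM per kilobase. Exon lengths are the union over annotated transcripts, which for NAP1L1 comes to 17355 bases and for ANP32B to 1850. The transcripts used in T98G were not measured, so ranks can depend on the annotation, also between genes far apart in the order. Not corrected for length, the order of these genes was the opposite, with means of 26095 normalized counts for NAP1L1 and 9641 for ANP32B in shControl.

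Across the 10 members, every spike-in log2 fold change was negative, from -1.17 (NAP1L1) to -0.14 (HIRA), with a median of -0.63 beside -0.40 for all tested genes. At an adjusted p below 0.05, 9 of the 10 were lower in shDYRK1A, against 63.4% of all tested genes, and 0 were higher, against 1.08%. When a log2 fold change below -0.7 was also required, 3 of the 10 remained (NAP1L1, ANP32E and SET), against 14.3%. This count was 6 without shControl 1C and 6 without shDYRK1A 1A. Over all 9697 tested genes it went from 1386 to 2093 and 2083 in these fits. The normalized counts of the conditions did not overlap for 9 of the 10, HIRA being the exception, against 65.2% of all tested genes. Because the list was chosen on this comparison, nothing is read from these counts beyond the description. After TMM scaling 7 were lower, against 28.6% of all tested genes, and 1 (HIRA) was higher, against 27.3%, with a member median of -0.22. With the fold threshold only NAP1L1 was past it on the TMM scale (1 of 10), against 1.93% of all tested genes. The CPM values, which carry no spike-in scaling, did not overlap for 8 of the 10, against 62.8%, the exceptions being NAP1L4 and SSRP1.

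**Figure D1:**
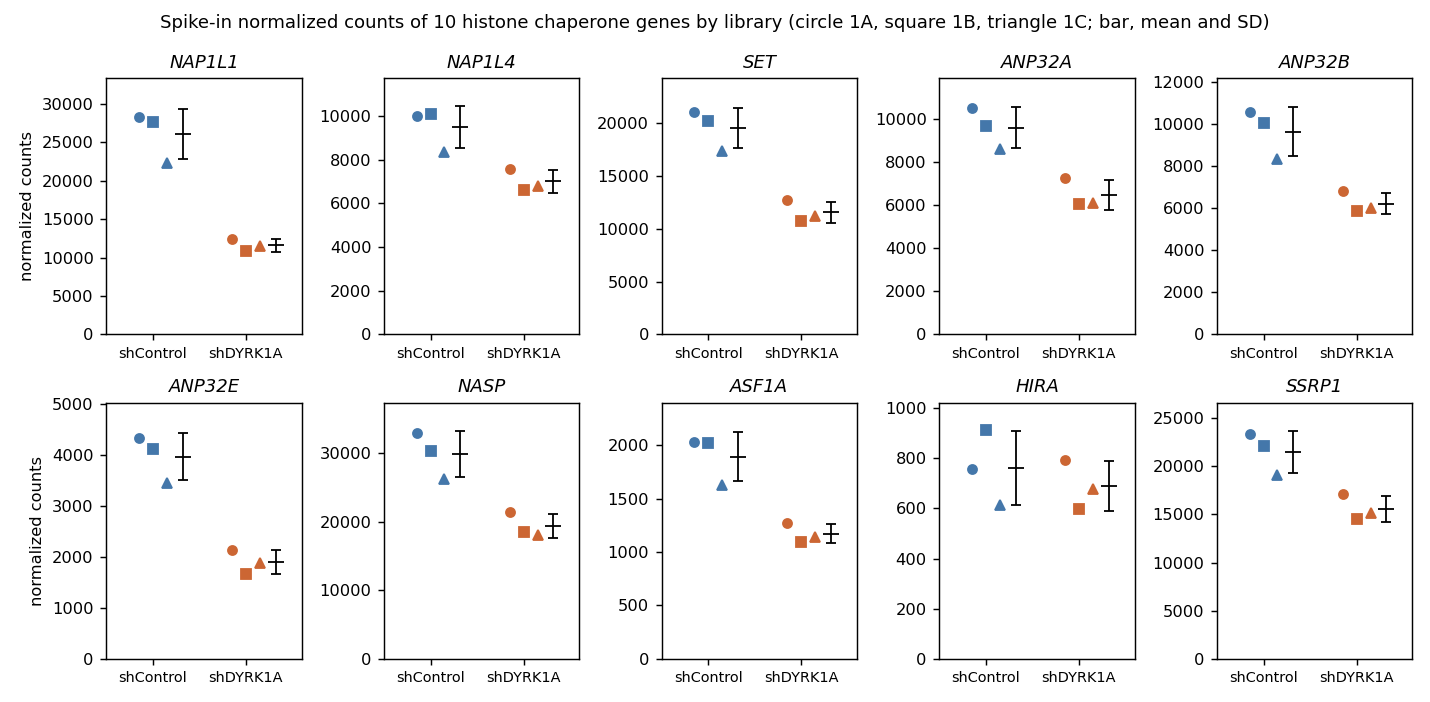
Spike-in normalized counts (linear axes from 0) of the 10 histone chaperone genes in each shControl (blue) and shDYRK1A (orange) library, with the mean and SD of 3 libraries at the right of each group. The groups are apart in 9 panels, with the widest relative gap in NAP1L1 and ANP32E, and overlap in HIRA.

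NAP1L1, a NAP1 family member that binds H2A-H2B and shuttles it into the nucleus (ENSG00000187109, chr12:76036587-76085033, minus strand, GRCh38), had the lowest fold change of the list. Its normalized counts in the order 1A, 1B, 1C, kept for every gene below, were 28342, 27594 and 22347 for shControl and 12486, 10835 and 11506 for shDYRK1A. The lowest shControl library thus lay well above the highest shDYRK1A library. The mean went from 26095 ± 3267 to 11609 ± 830 (SD, n = 3), which left 44.5% of the control level and gave a log2 fold change of -1.17 ± 0.13 (SE). Of the 9697 tested genes, 134 (1.38%) had a lower fold change. In CPM, the shControl libraries had 589, 577 and 557 and the shDYRK1A libraries 341, 347 and 345. On this scale the libraries of each condition lay close together, and the TMM fold change was -0.76 ± 0.04, which left 59.1%. Leaving out each library in turn gave spike-in fold changes from -1.27 to -1.10.

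NAP1L4, the closest relative of NAP1L1 and likewise an H2A-H2B chaperone (ENSG00000205531, chr11:2944431-2992377, minus strand), differed much less. It had 9981, 10087 and 8358 normalized counts in shControl and 7587, 6604 and 6808 in shDYRK1A. Although these did not overlap, the log2 fold change of -0.44 ± 0.13 (SE) was close to the median of all tested genes, and 44.5% of tested genes were lower. Its CPM was 208, 211 and 208 in shControl and 207, 211 and 204 in shDYRK1A, which overlapped, with a TMM fold change of -0.03 ± 0.04. The other NAP1 family genes were hardly expressed. NAP1L2 had 22.2 to 52.2 normalized counts per library, NAP1L3 6.49 to 17.0 and NAP1L5 0 to 1.22, all under the filter.

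The ratio of NAP1L1 to NAP1L4 raw counts within a library needs no scaling between libraries. It was 2.84, 2.74 and 2.67 in shControl and 1.65, 1.64 and 1.69 in shDYRK1A. The groups did not overlap, and the log2 ratio was lower by -0.73 in shDYRK1A (-0.75 to -0.71 when each library was left out). The pair thus changed unequally whichever scale was used for the single genes.

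SET is an acidic chaperone and phosphatase inhibitor that, with ANP32A, was identified in a complex that blocks histone acetylation. The SET gene (ENSG00000119335, chr9:128683424-128696400, plus strand) had 21050, 20151 and 17337 normalized counts in shControl and 12681, 10689 and 11219 in shDYRK1A. The groups did not overlap. The log2 fold change was -0.76 ± 0.13 (SE), with 10.3% of tested genes lower, and -0.35 after TMM scaling.

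The 3 ANP32 genes, which encode small leucine-rich proteins with an acidic tail, were not equally affected. ANP32E, the chaperone that removes the variant H2A.Z from chromatin (ENSG00000143401, chr1:150218417-150236156, minus strand), had 4340, 4124 and 3455 normalized counts in shControl and 2137, 1671 and 1888 in shDYRK1A. Its highest shDYRK1A library was well below its lowest shControl library. The mean went from 3973 ± 461 to 1898 ± 233 (SD, n = 3). The log2 fold change was -1.07 ± 0.14 (SE), and 2.34% of tested genes were lower. Its CPM was 90.2, 86.2 and 86.1 in shControl and 58.3, 53.5 and 56.7 in shDYRK1A, and the TMM fold change was -0.66, which left 63.2%.

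ANP32A, an inhibitor of histone acetylation and of the phosphatase PP2A (ENSG00000140350, chr15:68778535-68820897, minus strand), had 10527, 9672 and 8601 normalized counts in shControl and 7271, 6034 and 6109 in shDYRK1A. ANP32B, an H3-H4 binding member of the family (ENSG00000136938, chr9:97983361-98015943, plus strand), had 10548, 10047 and 8327 in shControl and 6800, 5853 and 6004 in shDYRK1A. Neither gene's groups overlapped. Their counts, not corrected for length, were nearly equal in every library, whereas per kilobase of exon ANP32B stood well above ANP32A. The log2 fold change was -0.57 ± 0.13 for ANP32A and -0.63 ± 0.13 for ANP32B (SE), and -0.17 and -0.22 after TMM scaling. The ratio of ANP32B to ANP32A raw counts was 1.002, 1.04 and 0.968 in shControl and 0.935, 0.970 and 0.983 in shDYRK1A, which overlapped. In contrast, the ratio of ANP32E to ANP32A was 0.412, 0.426 and 0.402 in shControl and 0.294, 0.277 and 0.309 in shDYRK1A, a log2 difference of -0.50 without overlap.

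**Figure D2:**
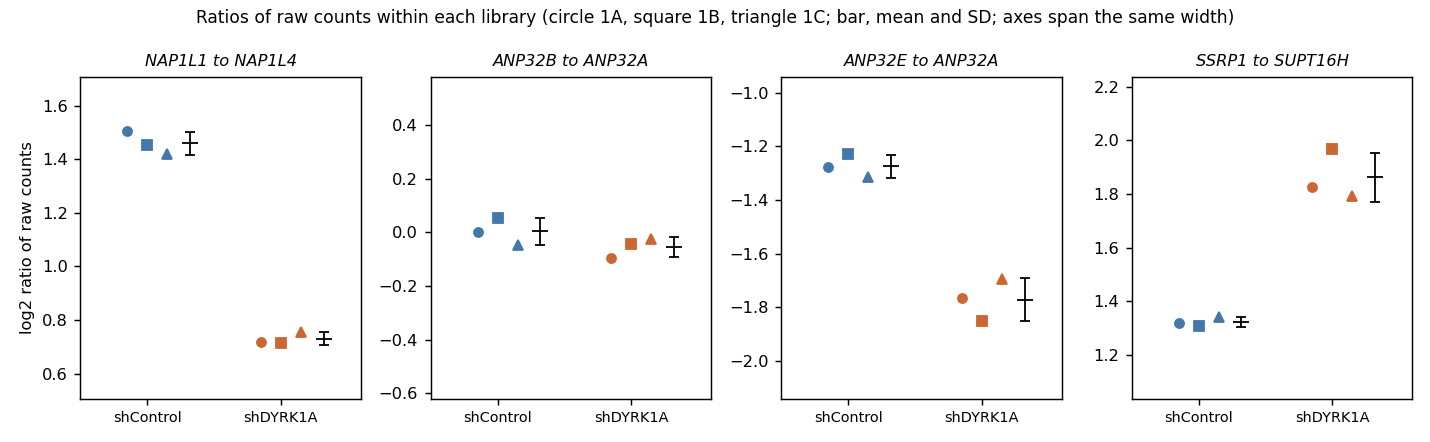
Log2 ratios of raw counts within each library for 4 pairs of related genes in shControl (blue) and shDYRK1A (orange), with the mean and SD of 3 libraries beside each group; all panels span the same width. NAP1L1 to NAP1L4 and ANP32E to ANP32A lie lower in every shDYRK1A library, ANP32B to ANP32A overlaps, and SSRP1 to SUPT16H lies higher.

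NASP keeps a reserve of soluble H3-H4 and protects it from degradation. NASP (ENSG00000132780, chr1:45583846-45618904, plus strand) had 32867, 30337 and 26248 normalized counts in shControl and 21409, 18534 and 18096 in shDYRK1A. It was the member with the most normalized counts, not corrected for length, and its groups did not overlap. The log2 fold change was -0.62 ± 0.13 (SE), with 20.7% of tested genes lower, and -0.22 after TMM scaling.

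ASF1A passes H3-H4 dimers on to the depositing complexes and pairs preferentially with HIRA. ASF1A (ENSG00000111875, chr6:118894220-118909167, plus strand) had 2037, 2024 and 1627 normalized counts in shControl and 1272, 1099 and 1142 in shDYRK1A, which did not overlap. The log2 fold change was -0.69 ± 0.15 (SE), just short of -0.7, and -0.29 after TMM scaling. SET, at -0.76, was the member just past that threshold. In GENCODE v29, 5.44% of the exonic bases of ASF1A are shared with MCM9 on the opposite strand, and the strand setting of the authors' counting was not given in the sources used here.

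HIRA, which deposits the variant H3.3 outside replication (ENSG00000100084, chr22:19330698-19447450, minus strand), was the exception among the members. It had 757, 912 and 615 normalized counts in shControl and 795, 599 and 677 in shDYRK1A. The shControl and shDYRK1A libraries were intermingled, and the log2 fold change of -0.14 ± 0.16 (SE) turned to 0.01 without shControl 1B. Its CPM was 15.7, 19.1 and 15.3 in shControl and 21.7, 19.2 and 20.3 in shDYRK1A. By CPM each shDYRK1A library lay above each shControl library, narrowly for 1B of both, and the TMM fold change was 0.26 ± 0.09. The direction of HIRA therefore depends on the scaling. HIRA shares 66.5% of its exonic bases with C22orf39 on the same strand in GENCODE v29, so reads there may be set aside as ambiguous. C22orf39 had a log2 fold change of 0.09 ± 0.15 (SE) with spike-in scaling and 0.50 with TMM, and the part of this overlap in the HIRA values was not tested.

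SSRP1 is the HMG-box subunit of FACT, the complex that takes H2A-H2B off and puts it back as polymerases pass. SSRP1 (ENSG00000149136, chr11:57325985-57335877, minus strand) had 23373, 22057 and 19118 normalized counts in shControl and 17085, 14529 and 15105 in shDYRK1A. Although these did not overlap, the log2 fold change of -0.47 ± 0.13 (SE) lay near the median gene, with 40.3% of tested genes lower, and the TMM fold change was -0.06. The gene for the other FACT subunit, SUPT16H, had 9378, 8907 and 7541 normalized counts in shControl and 4816, 3715 and 4355 in shDYRK1A, a log2 fold change of -1.003 ± 0.14 (SE, edgeR adjusted p = 9.09e-12). The ratio of SSRP1 to SUPT16H raw counts was accordingly 2.49, 2.48 and 2.54 in shControl and 3.55, 3.91 and 3.47 in shDYRK1A. The log2 ratio was higher by 0.54 (0.49 to 0.57 when each library was left out) and the groups did not overlap, so the messages of the subunits changed unequally.

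**Figure D3:**
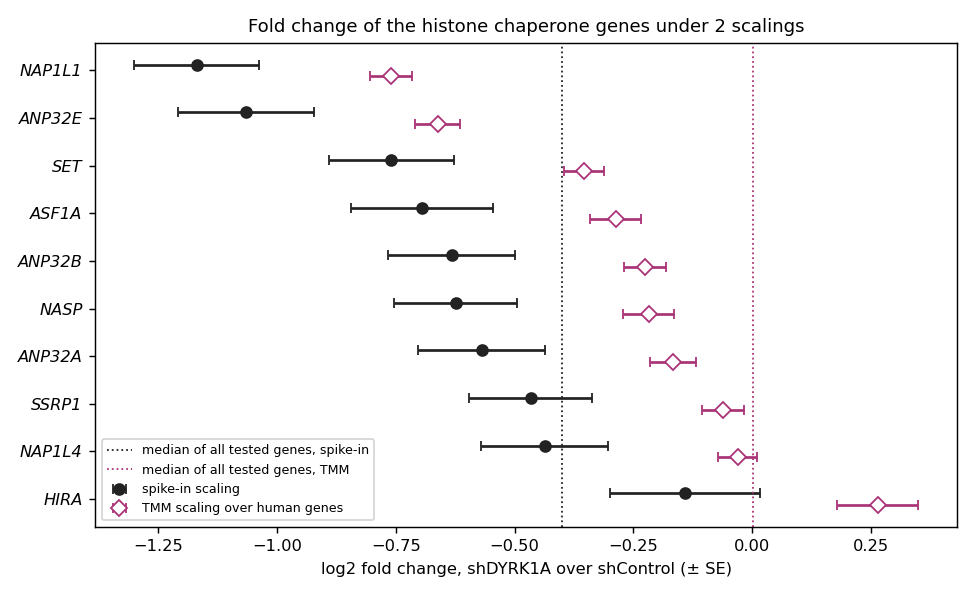
Log2 fold change (shDYRK1A over shControl, bars are SE) of the 10 genes with spike-in scaling (filled circles) and with TMM scaling over human genes (open diamonds); dotted lines mark the median of all tested genes on each scale, -0.40 and 0.00. NAP1L1 and ANP32E lie farthest below the median on both scales, NAP1L4 and SSRP1 lie close to it, and HIRA lies above it.

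Some members have near-identical copies in the genome. Annotated pseudogenes held counts amounting to 0.266% of the parent's for NAP1L1, 0.332% for NAP1L4, 0.591% for SET (11 of 19 pseudogenes with counts), 0.231% for ANP32A and 0.356% for ANP32B. Multimapping reads, which such copies produce, were 2.26 to 2.49% of all reads and were not assigned to genes, so the share each member lost is not known. Bases shared with a gene on the opposite strand made up 2.01% of the exons of NAP1L1, 1.61% of those of NAP1L4 and 2.21% of those of SSRP1.

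The 3 genes whose pattern over the 6 libraries was most like that of NAP1L1, by the root mean square difference of log2 normalized counts centred on each gene's shControl mean, were URB2 (0.0275), CCNE1 (0.0301) and RRM2 (0.0310). URB2 encodes a ribosome biogenesis factor, CCNE1 cyclin E1 and RRM2 a subunit of ribonucleotide reductase. Their log2 fold changes were -1.19, -1.16 and -1.20, respectively. The measure includes the difference between the conditions, so fold changes close to that of NAP1L1 follow from the way these genes were picked.

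Other histone chaperone genes were listed with earlier results of these data known. Of 35 listed, 28 were tested, and 25 of these were lower at an adjusted p below 0.05 (63.4% of all tested genes), 0 were higher (1.08%), and 9 were also below a log2 fold change of -0.7 (14.3%). Without shControl 1A, 16 were lower, and of all 9697 tested genes 4049 were lower instead of 6145. The median of the other chaperones was -0.50, against -0.63 for the 10 members and -0.40 for all tested genes. With TMM scaling 12 were lower (28.6% of all tested genes), 2 were higher (27.3%; TSPYL2 at 0.70 and VPS72 at 0.18) and 0 were also below -0.7 (1.93%), with a median of -0.10. The genes under the filter were NAP1L2, NAP1L3, NAP1L5, TSPYL5, IPO4, APLF and NPM2.

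The lowest of these genes after SUPT16H were HJURP, which loads the centromeric histone CENP-A (log2 fold change -0.99, adjusted p = 6.79e-12), and TONSL, which binds newly deposited H4 behind the replication fork (-0.93, adjusted p = 2.49e-09). TONSL belongs to the group listed around ASF1 and CAF-1, the complex that deposits H3-H4 at replication. This group also includes subunits of CAF-1 itself and ASF1B. All of its 10 tested genes were lower, against 63.4% of all tested genes, with a median log2 fold change of -0.61. With TMM scaling 5 of the 10 were lower, against 28.6%, with a median of -0.21. Within this group CHAF1B (-0.92, adjusted p = 3.79e-09) and CHAF1A (-0.81, adjusted p = 1.90e-07), the larger subunits of CAF-1, had lower fold changes than ASF1B, the paralogue of ASF1A linked to proliferation (-0.44 ± 0.14, adjusted p = 0.00433), although the differences between them were not tested. RBBP4, a further CAF-1 subunit in this group, stood at -0.48 ± 0.13 (SE) and at -0.08 after TMM scaling. ASF1B stood at -0.03 after TMM scaling and kept an adjusted p below 0.05 in 4 of 6 fits that left out 1 library.

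Of the partners of HIRA, CABIN1 and UBN1 lay near the median of all tested genes, with 38.7% and 48.9% of tested genes lower. UBN2 lay above it, with 72.9% lower. CABIN1 had a log2 fold change of -0.48 (adjusted p = 0.00173), UBN1 of -0.41 (adjusted p = 0.00814, kept in 3 of 6 fits that left out 1 library) and UBN2 of -0.25 (adjusted p = 0.153). After TMM scaling 0 of the 3 passed an adjusted p below 0.05, against 28.6% of all tested genes lower and 27.3% higher. The highest of the list were TSPYL2, a TSPY-like relative of the NAP1 family (0.30 ± 0.15, adjusted p = 0.0667), VPS72, an H2A.Z-binding subunit of remodelling complexes (-0.23, adjusted p = 0.151), and UBN2. All adjusted p-values are from edgeR's quasi-likelihood test with spike-in scaling.

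**Figure D4:**
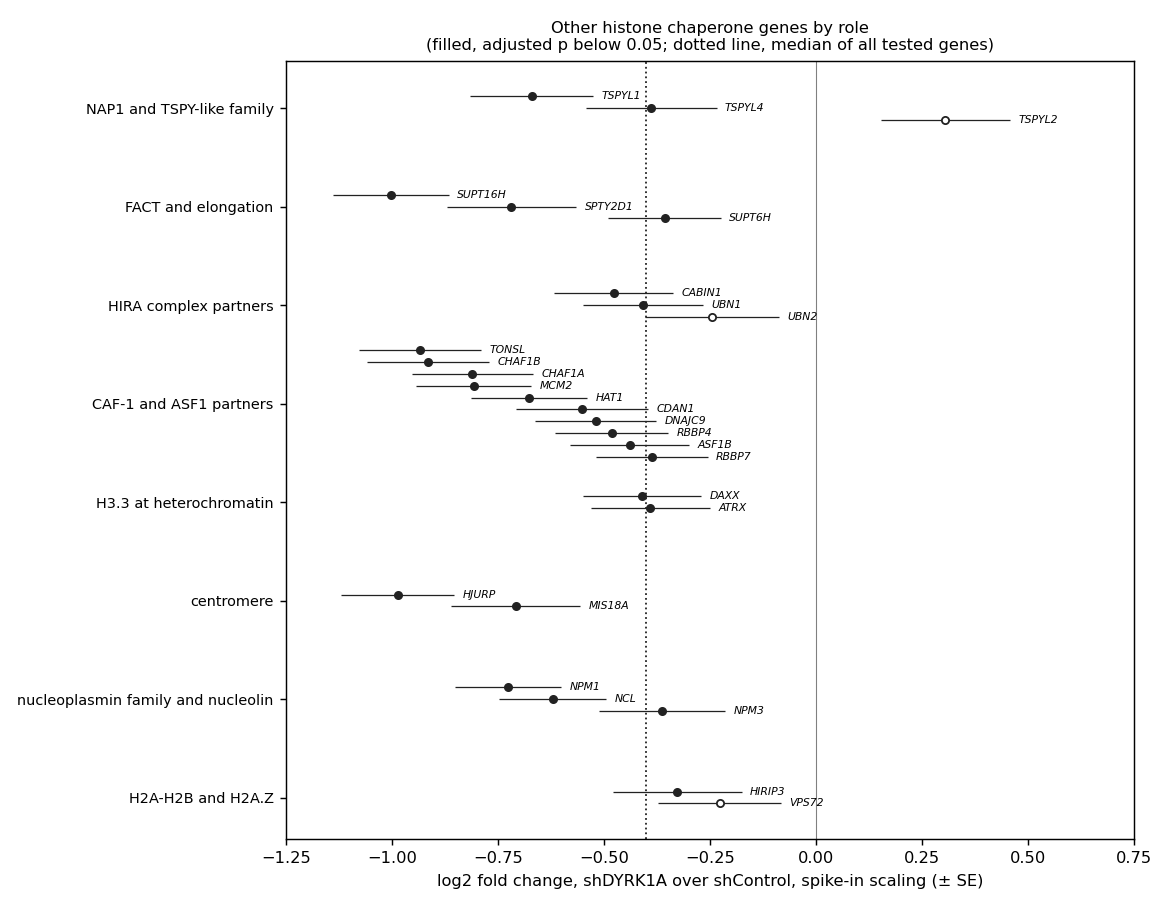
Log2 fold change (shDYRK1A over shControl, spike-in scaling, bars are SE) of the 28 tested other histone chaperone genes grouped by role; filled points have an adjusted p below 0.05 and the dotted line is the median of all tested genes, -0.40. SUPT16H, HJURP, TONSL and CHAF1B lie lowest. Of the partners of HIRA, CABIN1 and UBN1 lie near the line and UBN2 at a higher fold change. TSPYL2 is the only gene plotted above 0.

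For comparison with the members' other affiliations, 20 tested TOP transcripts other than NAP1L1 had a median log2 fold change of -0.57, with 16 lower at an adjusted p below 0.05 (63.4% of all tested genes) and 6 also below -0.7 (14.3%). NAP1L1, already known to be low when it was chosen, lay at -1.17. The lowest of this partial list was EIF2S3 (-1.02, adjusted p = 2.47e-12), and the highest was FAU (-0.11, adjusted p = 0.481). With TMM scaling 11 were lower (28.6% of all tested genes), 4 were higher (27.3%) and 0 were also below -0.7 (1.93%), with a median of -0.16. Of 20 S phase genes, 20 were lower (63.4% of all tested genes) and 19 were also below -0.7 (14.3%), with a median of -0.85, from UNG (-1.26) to MCM7 (-0.53). With TMM scaling 20 were lower (28.6%) and 3 were also below -0.7 (1.93%), with a median of -0.45. In T98G cells with DYRK1A silenced, the paper reports a reduced share of cells in S phase. That share was not measured in these libraries, and its part in the levels of NAP1L1, ANP32E, NASP and the other members was not tested.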

How the data were processed

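The members and the gene lists were chosen with earlier results of these data known. Human gene counts per library (stranded paired-end mRNA sequencing) were deposited as raw counts. The submitters' notes name STAR, DESeq2 and the builds hg38 and dm3, and the versions, the annotation and the strand setting of counting were not given in the sources used here. The authors' deposited normalized signal for 23026 genes is the raw counts divided by 1 spike-in size factor per library, and these factors were used here. A further deposited table, the authors' own comparison with log2 fold changes and p-values, was not used. Lines without a gene (unmapped 8.44 to 15.65%, multimapping 2.26 to 2.49%, no feature 3.66 to 4.81% and ambiguous 3.42 to 3.59% of reads) entered neither the library sizes nor the tests. GENCODE v29 (GRCh38) gave the same coordinates as the deposited table for 95.83% of its genes.

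Samples were grouped by their titles. Genes with a mean above 10 CPM after normalization were tested with glmQLFit and glmQLFTest of edgeR 4.0.16 (robust option, R 4.3.3) with the size factors, and p-values were adjusted by Benjamini-Hochberg over 9697 genes. The call threshold was a log2 fold change beyond 0.7 in either direction with an adjusted p below 0.05. Standard errors are the fold change over the square root of F. The procedure was tested on simulated data. Alternatives were TMM, median-of-ratios factors, the Wald test of DESeq2 1.42.0, the replicate letter as a block, filterByExpr, no filter beyond 1 count, no fold threshold, CPM and each library left out. Beside the members and DYRK1A, the named genes are the 3 lowest and 3 highest other chaperones, SUPT16H, UBN1, UBN2, CABIN1, ASF1B, CHAF1A, CHAF1B, the lowest and highest TOP and S phase genes, and the 3 genes most like NAP1L1. Genes named beside this rule (the remaining NAP1 family genes, RBBP4, C22orf39, MCM9, the genes under the filter and the glial markers) were chosen after their values were seen. EEF1G, a listed TOP transcript, is listed at 0 and was not tested. Promoter sequences are from RefSeq (GRCh38.p14).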

Additional observations from a re-analysis of the deposited data

How the results depend on the processing

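Several counts changed with the scaling, the filter and the fold threshold. For all tested genes, the number lower at an adjusted p below 0.05 went from 6145 to 2769 (TMM), 2719 (median-of-ratios) and 2847 (TMM with the replicate block), and the number higher from 105 to 2652, 2709 and 2764. With the fold threshold, 1386 lower became 187, 184 and 189, and 27 higher became 121, 125 and 118. For the 10 members, 3 called lower became 1 (NAP1L1) and 0 higher became 1 (HIRA) under each of these. For the other chaperones, 25 lower became 12, 9 called lower became 0, 0 higher became 2 and 0 called higher became 1 under each, and DESeq2's test gave 1 higher (TSPYL2). Without the fold threshold 9 members and 25 other chaperones counted as called lower, beside 6145 lower and 105 higher of all genes. With filterByExpr, 346 genes were higher, 2492 called lower and 229 called higher, and with no filter beyond 1 count 308, 2468 and 224, since more genes were tested. Fold changes of HIRA turned to 0.26, 0.27 and 0.27, of UBN2 to 0.14, 0.14 and 0.14 and of VPS72 to 0.18, 0.18 and 0.18 under TMM, median-of-ratios and TMM with the block, UBN1 turned to 0.0011 under median-of-ratios, and HIRA ranged from -0.28 (without shControl 1C) to 0.0095 (without shControl 1B).

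Leaving out each library gave 4049 (without shControl 1A) to 7552 (without shControl 1C) genes lower, 69 (without shDYRK1A 1C) to 114 higher, 908 (without shDYRK1A 1B) to 2093 (without shControl 1C) called lower and 16 (without shControl 1C) to 32 called higher. Of the members 9 were lower and 0 higher each time, and 3 to 6 were called lower, 6 of them without shControl 1C or without shDYRK1A 1A. Of the other chaperones 16 (without shControl 1A) to 26 were lower, 6 to 12 called lower and 0 to 1 higher, the 1 appearing without shDYRK1A 1B. DYRK1A ranged from -0.85 to -0.61. The log2 ratios ranged from -0.75 to -0.71 for NAP1L1 to NAP1L4, -0.08 to -0.03 for ANP32B to ANP32A, -0.54 to -0.46 for ANP32E to ANP32A and 0.49 to 0.57 for SSRP1 to SUPT16H. As a check of pairing, the deviations of libraries with the same letter correlated at 0.151 (1A), 0.073 (1B) and 0.128 (1C), not all above 0.1, so the letters were not taken as pairs, although each library correlated best with its own letter. The replicate block alone gave 5913 genes lower and 98 higher, 9 members lower and 24 other chaperones lower. HIRA had the fewest counts of the members and a standard error of 0.16, beside 0.15 for ASF1A, the next lowest in counts.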
